A study of Mus musculus with 2 samples.

Results

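The enzymes that write, copy and remove DNA methylation were followed in Dicer_KO mouse embryonic stem cells (mESCs), as 9 genes of the 43629 listed in the count files, found by gene symbol. They were the methyltransferases Dnmt1, Dnmt3a and Dnmt3b, the cofactors Dnmt3l and Uhrf1, the dioxygenases Tet1, Tet2 and Tet3, and the glycosylase Tdg. All 9 matched an Ensembl identifier and passed the filter on low counts, a mean of 10 or more.

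DNA methylation in mammals sits mostly on the cytosine of CpG dinucleotides. DNMT3A and DNMT3B place it de novo, helped by the catalytically inactive DNMT3L, and DNMT1 restores it after replication, where UHRF1 recognises hemimethylated CpGs. TET enzymes oxidise methylcytosine, and TDG excises the last oxidation products so that base excision repair can put back an unmodified cytosine. In mESCs, microRNAs of the miR-290 cluster are known to repress Rbl2, a pocket protein of the retinoblastoma family that can hold E2F-driven genes down. Through Rbl2 these microRNAs have been linked to expression of the de novo methyltransferases.

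PolyA-selected RNA was sequenced in 2 libraries, Dicer_KO replicate 1 at passage 7 and Dicer_KO replicate 2 at passage 4. The cells were derived from E14TG2a, an mESC line of 129/Ola background and blastocyst origin, and were kept in serum + LIF, which holds mESCs in self-renewal. The knockout removes DICER, the RNase that cuts microRNA precursors, by a pair of CRISPR/Cas9 cuts, and lines were grown from single sorted cells, so each line is a clone. The study made lines with different deletions, and the labels do not say which one a library carries. Line, passage and library therefore cannot be told apart here, no label says whether cultures were grown separately, and WT libraries were not analysed here. With 1 library on each side no test between them was possible. Every interval below covers counting error only.

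The libraries held 41710122 and 41566184 counts on genes, so that 3 counts correspond to 0.0719 and 0.0722 CPM, the counts per 1e6 counts on genes. Dicer1 had 1343 counts in replicate 1 and 1510 in replicate 2, a log2 ratio of -0.29 (95% interval -0.40 to -0.18). Its remaining counts do not check the knockout, since reads outside a deleted part are still counted. Core mESC genes were abundant, with 39069 and 43025 counts of Pou5f1, the factor that defines pluripotent cells, and 7 of 7 core genes measured in both libraries. Of 7 fibroblast genes, Lum and Dcn had 0 counts in replicate 1 and Col3a1 had 0 in replicate 2, while Thy1 was the most counted with 823 and 621. Their summed level was 26.1 CPM in replicate 1 and 18.8 CPM in replicate 2, of which Thy1 made up 18.9 and 15.6 CPM. Others went in opposite directions, Pdgfrb with 285 and 91 counts and Dcn with 0 and 19. In bulk RNA, fewer cells of a type and less RNA per cell cannot be told apart. The part of any such cells in the values below was not tested.

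The microRNA side of this pathway is shown first as sequence, because the Dicer_KO cells lack the enzyme that makes these microRNAs. Mature sequences are from RefSeq (GRCm38.p6), 5′ to 3′, with the seed of bases 2 to 8 in capitals. The cluster members on chromosome 7 fall into 2 seed groups, AAGUGCC for miR-290a-3p and AAGUGCU for the other cluster members shown, which miR-302b-3p of chromosome 3 shares. The miR-29 family, known to target DNA methyltransferases and TET genes in other cells, is given with them.
miR-290a-3p: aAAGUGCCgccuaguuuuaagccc
miR-291a-3p: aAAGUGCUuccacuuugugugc
miR-294-3p: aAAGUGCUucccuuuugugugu
miR-295-3p: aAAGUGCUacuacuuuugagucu
miR-302b-3p: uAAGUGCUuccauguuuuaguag
miR-29a-3p: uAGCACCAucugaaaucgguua
miR-29b-3p: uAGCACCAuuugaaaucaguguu
miR-29c-3p: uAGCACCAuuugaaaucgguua

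Complements of these seeds were counted in the 3′ UTR of 1 transcript per gene (GRCm38). A match is a description of letters and was not tested as a binding site. The complement of the miR-290a-3p seed, GGCACTT, occurs 2 times in the Rbl2 UTR of 1398 bases, and that of the miR-291a-3p seed, AGCACTT, 1 time. Over all 21034 UTRs, 8.04% hold the first and 14.4% the second. Among UTRs of at least 1000 bases, as that of Rbl2 is, the shares are 14.2% and 25.7%. Among the 9 genes, Dnmt3a holds 1 GGCACTT, and Tet1, Tet2 and Tet3 hold 2, 1 and 3 AGCACTT. Dnmt1, Dnmt3b, Dnmt3l, Uhrf1 and Tdg hold neither. UTRs of at least 5000 bases, a length that those of Tet1, Tet3 and Dnmt3a exceed, hold the first in 32.3% and the second in 59.2%. Each window below is up to 30 bases of the transcript strand, with the seed complement in capitals.
Rbl2 site at chr8:91123138-91123167: tgtgtaattggtGGCACTTtatggctgtaa
Rbl2 site at chr8:91123199-91123228: tatatttatgatGGCACTTtctatggtgtg
Rbl2 site at chr8:91123818-91123844: atttttcaataaAGCACTTataaatta
Dnmt3a site at chr12:3914226-3914255: ggttttctcatgGGCACTTtttcttgcttt
Tet1 site at chr10:62811875-62811904: tatattttaaaaAGCACTTtctacttttaa
Tet1 site at chr10:62805019-62805048: gaaaatagttaaAGCACTTcatgacattaa
Tet2 site at chr3:133465904-133465933: gtgtcttagaaaAGCACTTtgcctacctaa
Tet3 site at chr6:83367833-83367862: ctcttcttccccAGCACTTtgaagaaacta
Tet3 site at chr6:83366201-83366230: aagatttttttaAGCACTTttgcctagatt
Tet3 site at chr6:83363399-83363428: gaaaatctacgcAGCACTTggtttatctgc

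The miR-29 complement TGGTGCT is present in 6 of the 9 genes. It occurs 8 times in the UTR of Tet3 (5669 bases), 7 times in Tet1 (7955 bases), 5 times each in Tet2 (3058 bases) and Dnmt3a (6696 bases), 3 times in Tdg (2079 bases) and 1 time in Dnmt3b (1331 bases). Dnmt1, Dnmt3l and Uhrf1, with UTRs of 312, 273 and 984 bases, have none, and neither does Rbl2. Of the 21034 UTRs, 12.9% hold at least 1 match and only 11 UTRs hold 5 or more, of which 4 belong to genes studied here. Length goes with this count, as 9 of those 11 UTRs are at least 5000 bases long. The first matches of both de novo enzymes and of Tet3, which has the most, are shown for comparison.
Dnmt3a site at chr12:3908560-3908589: ccgacttcataaTGGTGCTttcaaaacagc
Dnmt3b site at chr2:153686615-153686644: agtagcccggcaTGGTGCTcatgttctctt
Tet3 site at chr6:83367974-83368003: cgagctgctctgTGGTGCTtttgccctcat

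Transcript levels of the 9 genes spanned more than 2 orders of magnitude. Levels are given in RPKM, computed from the counts with TMM-scaled library sizes and the summed exon length of each gene, with the mean ± SD of both libraries. Uhrf1 was highest at 82.8 ± 14.6 RPKM (SD, n = 2) and Tdg lowest at 0.448 ± 0.204 (SD, n = 2). In between came Dnmt1 at 56.7 RPKM, Dnmt3b at 56.4, Dnmt3l at 32.5, Tet1 at 24.98, Tet2 at 13.2, Dnmt3a at 9.02 and Tet3 at 2.73. Neighbours in this order whose library values overlapped were Dnmt1 with Dnmt3b, Dnmt3b with Dnmt3l, Dnmt3l with Tet1, and Tet2 with Dnmt3a. Uhrf1 stood above Dnmt1, Tet1 above Tet2, Dnmt3a above Tet3 and Tet3 above Tdg in both libraries without overlap. With the length of the longest transcript in place of the summed exon length the order was kept, but Tet2 came to 24.3 RPKM, Dnmt3a to 15.5, Dnmt3l to 53.3, Tet3 to 4.18 and Tdg to 0.688, and the library values of Tet1 (26.9 RPKM) and Tet2 overlapped. Between the libraries, Dnmt1 and Dnmt3b changed places, and so did Dnmt3l and Tet1. Among 14699 protein-coding genes, Uhrf1 lay above 97.5% of the mean levels, Dnmt1 and Dnmt3b above 95.6% each, and Tet3 above 37.6%.

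**Figure D1:**
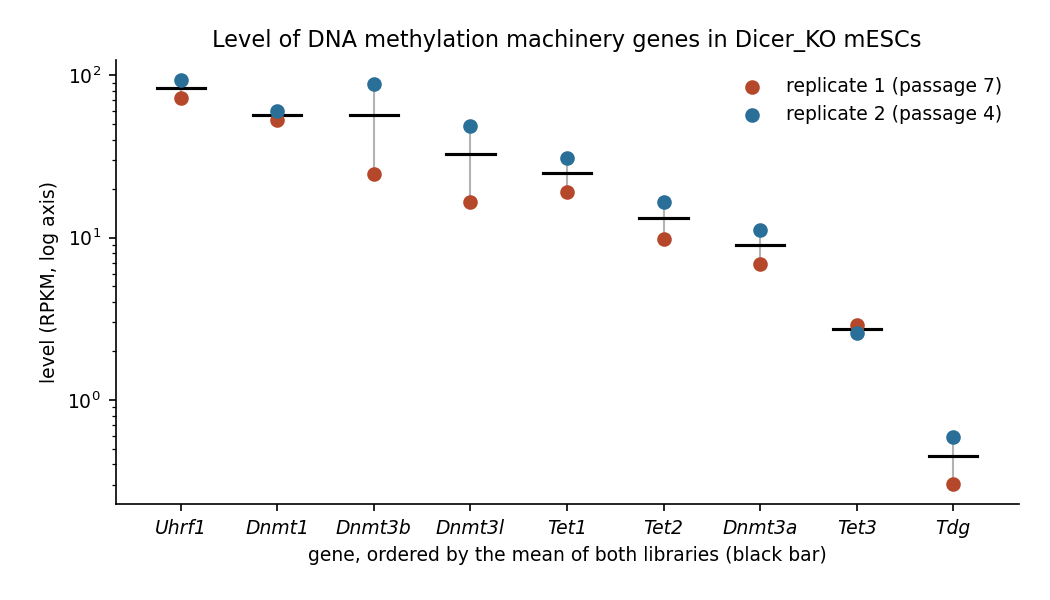
RPKM on a log axis for each gene in Dicer_KO replicate 1 (red) and replicate 2 (blue), with a black bar at their mean. Only Tet3 has the red point above the blue one, and the gap is widest for Dnmt3b (24.8 and 88.1 RPKM) and Dnmt3l (16.5 and 48.5 RPKM).

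The maintenance pair was abundant and differed little between the libraries. Dnmt1 (ENSMUSG00000004099, GRCm38 chr9:20907209-20959888, minus strand), the copying enzyme, had 17006 counts in replicate 1 and 17773 in replicate 2, or 53.1 and 60.4 RPKM. Its log2 ratio of replicate 1 over replicate 2 was -0.19 (95% Clopper-Pearson interval -0.22 to -0.16). Uhrf1 (ENSMUSG00000001228, chr17:56303321-56323486, plus strand), which brings DNMT1 to hemimethylated sites, had 13402 and 15821 counts, or 72.4 and 93.1 RPKM, with a log2 ratio of -0.36 (-0.39 to -0.33). Both were lower in replicate 1, by 1.14-fold and 1.28-fold, and both lay within the middle 50% of all genes, which ran from -0.38 to 0.54. Uhrf1 stood at 1.37 times the level of Dnmt1 in replicate 1 and at 1.54 times in replicate 2. Of the 50-base stretches of the Uhrf1 transcript, 18.9% also occur in transcripts of other genes, mostly Gm5648, so its count is uncertain.

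The de novo enzymes differed more. Dnmt3b (ENSMUSG00000027478, chr2:153649450-153687730, plus strand), the main de novo methyltransferase of early embryos, had 5495 counts in replicate 1 and 17958 in replicate 2, or 24.8 and 88.1 RPKM. It was 3.56-fold lower in replicate 1, a log2 ratio of -1.83 (-1.87 to -1.79), and 2.06% of the 17788 genes tested had a lower ratio. Dnmt3l (ENSMUSG00000000730, chr10:78041947-78063622, plus strand), which stimulates the active enzymes, had 2142 and 5787 counts, or 16.5 and 48.5 RPKM. That is 2.94-fold lower in replicate 1, a log2 ratio of -1.56 (-1.63 to -1.48). Dnmt3a (ENSMUSG00000020661, chr12:3806007-3914443, plus strand) had 4965 and 7427 counts, or 6.87 and 11.2 RPKM, and a log2 ratio of -0.70 (-0.76 to -0.65). All 3 genes were lower in replicate 1, Dnmt3a by 1.63-fold and the other two beyond 2-fold.

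The make-up of the methyltransferase transcripts differed between the libraries. Dnmt3b stood at 3.61 times the level of Dnmt3a in replicate 1 and at 7.88 times in replicate 2. Together, Dnmt3a and Dnmt3b came to 0.596 times the level of Dnmt1 in replicate 1 and 1.65 times in replicate 2. Dnmt1 thus made up 62.6% of the summed methyltransferase RPKM in replicate 1 and 37.8% in replicate 2, while Dnmt3b made up 29.2% and 55.2%. In contrast, Dnmt3l stood in a like proportion to its catalytic partners, 0.522 and 0.489 times their sum. These ratios depend on the length used. With the longest transcript, the mean of this proportion went from 0.505 to 0.652, and that of Dnmt3b over Dnmt3a from 5.74 to 3.95. Dnmt3b shares 11.5% of its 50-base stretches with Dnmt3c, a rodent-specific copy active in male germ cells. Only 3 and 6 counts were assigned to Dnmt3c, and the antisense gene Dnmt3bos had 4 and 11.

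**Figure D2:**
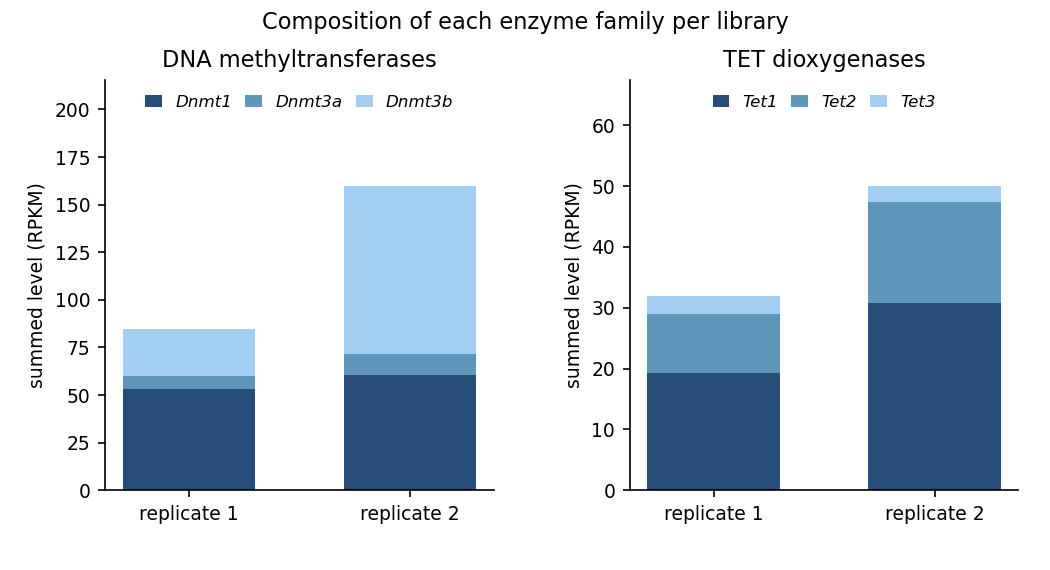
Stacked RPKM of the 3 catalytic methyltransferases (left) and of the 3 TET dioxygenases (right) in Dicer_KO replicates 1 and 2. The methyltransferase sum is 84.7 RPKM in replicate 1 and 160 in replicate 2, with Dnmt3b making up most of the gap, and the TET sum is 31.9 and 49.98.

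On the demethylation side, Tet1 was the leading TET gene in both libraries. Tet1 (ENSMUSG00000047146, chr10:62804570-62908996, minus strand), the main TET enzyme of mESCs, had 12883 counts in replicate 1 and 18979 in replicate 2, or 19.2 and 30.8 RPKM, with a log2 ratio of -0.68 (-0.71 to -0.65). Tet2 (ENSMUSG00000040943, chr3:133463679-133545139, minus strand), which lacks the CXXC domain, had 7224 and 11196 counts, or 9.86 and 16.6 RPKM, with a log2 ratio of -0.75 (-0.80 to -0.71). Tet3 (ENSMUSG00000034832, chr6:83362373-83459084, minus strand), known for oxidising the paternal genome of the zygote, had 2083 and 1722 counts, or 2.87 and 2.58 RPKM, with a log2 ratio of 0.15 (0.06 to 0.25). Tet1 and Tet2 were lower in replicate 1 by 1.60-fold and 1.69-fold, and Tet3 was 1.11-fold higher. Tet1 stood at 1.95 and 1.85 times the level of Tet2, or 1.11 times on average when the length of the longest transcript replaced the summed exon length, whereas Tet2 over Tet3 went from 3.43 in replicate 1 to 6.43 in replicate 2. Tet3 was 9.0% of the TET sum in replicate 1 and 5.17% in replicate 2. The TET sum over the methyltransferase sum was 0.377 in replicate 1 and 0.313 in replicate 2.

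Tdg (ENSMUSG00000034674, chr10:82629828-82650799, plus strand) had only 71 counts in replicate 1 and 127 in replicate 2, or 0.304 and 0.592 RPKM. Its log2 ratio was -0.95, with a wide interval of -1.40 to -0.53. This level is uncertain. Of its 50-base stretches 66.3% also occur in transcripts of other genes, mostly the processed copy Tdg-ps on chromosome 15, which matches it at 98.7% of 2968 bases and had 24 and 18 counts. How reads with several alignments were counted is not given in the sources used here. Gapdh, a housekeeping gene with many pseudogenes, likewise had only 1329 and 1778 counts against 58374 and 64246 of Actb (both chosen after their values were seen).

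Across the 9 genes, 8 were lower in replicate 1 and the median log2 ratio was -0.70, against 0.02 over all 17788 genes tested. All 9 counting intervals excluded 0, which at this depth says nothing about variation between cultures. Beyond 2-fold were Dnmt3b and Dnmt3l, 2 of 9, beside 21.4% of all genes in either direction, 7.14% lower and 14.2% higher in replicate 1. The share of members past 2-fold was thus near the background in either direction. Dnmt3b and Dnmt3l were both lower in replicate 1, the direction with the share of 7.14%, and with so few genes this gap was not tested. Beyond 1.5-fold were 6 of 9, beside 39.6% of all genes. The spread narrowed with abundance, and among the 7401 genes averaging 1000 counts or more (a limit chosen after seeing the data) 6.78% were beyond 2-fold, with 2 of the 8 members at that level. Direction also went with abundance. At 5000 counts or more, 69.9% of 2026 genes were lower in replicate 1 with a median of -0.20, and 6 of the 6 members there were lower with a median of -0.69.

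**Figure D3:**
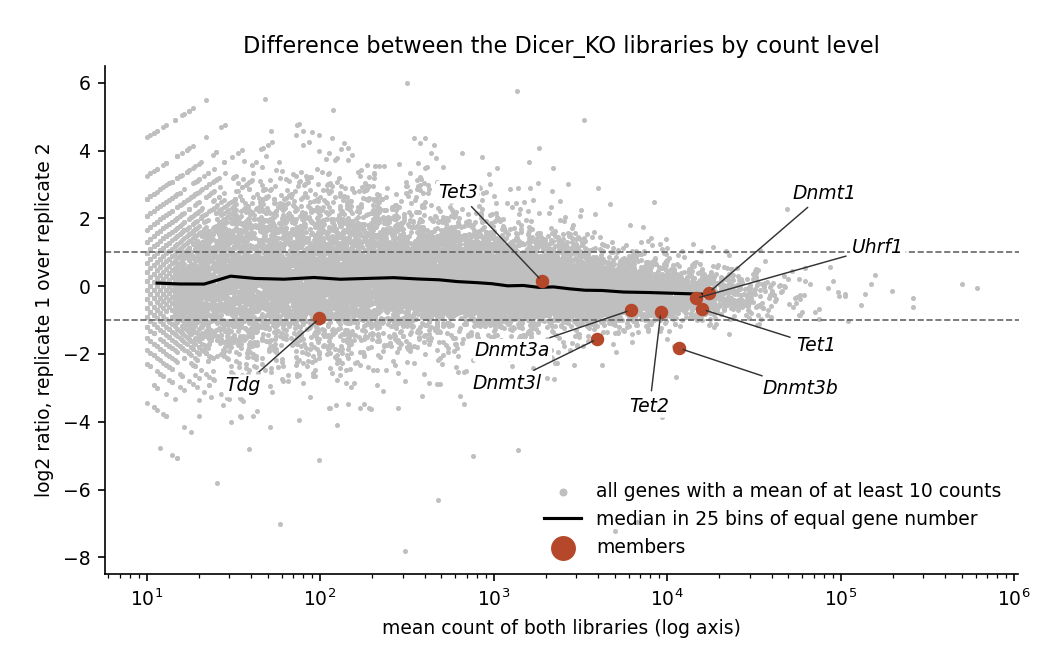
Log2 ratio of replicate 1 over replicate 2 against mean count (log axis) for all 17788 genes (grey), with the median in 25 bins (black line), dashed lines at 2-fold and the 9 genes in red. Dnmt3b and Dnmt3l lie below the lower dashed line, and the black line slopes down where most of the 9 genes lie.

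**Figure D4:**
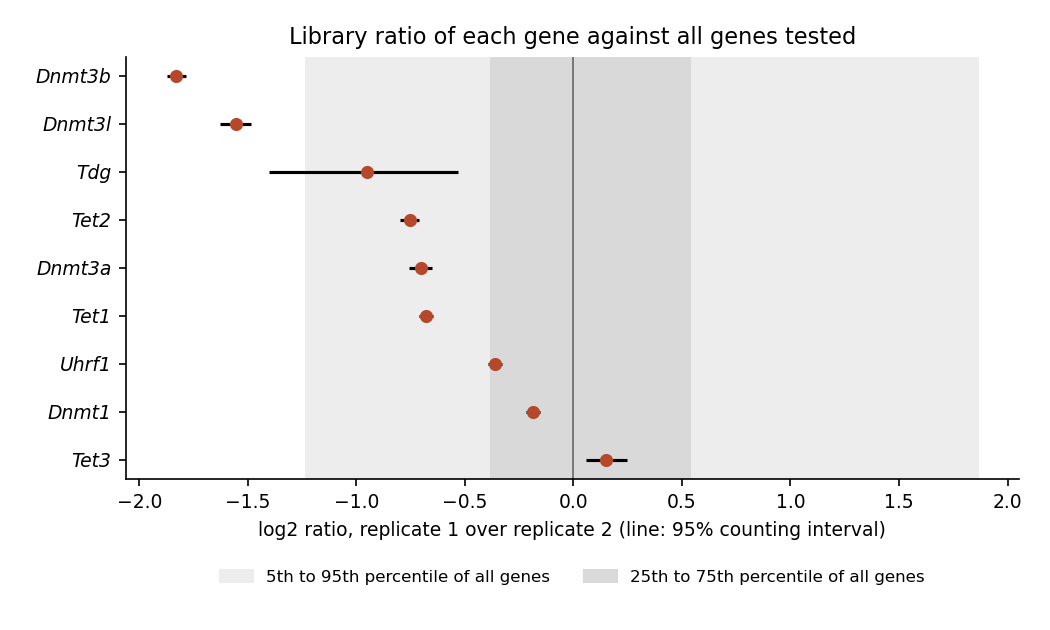
Log2 ratio of replicate 1 over replicate 2 for each gene, with its 95% counting interval, over bands for the middle 50% (dark grey) and middle 90% (light grey) of all genes tested. Dnmt3b and Dnmt3l lie outside the light band, and Dnmt1, Uhrf1 and Tet3 inside the dark one.

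The genes around the 9 loci were compared in the same way. Genes within 1 Mb of each had median log2 ratios between -0.16 around Tdg and 0.29 around Tet3, which itself was at 0.15, with -0.09 around Dnmt3b and 0.08 around Dnmt3l. Chromosome 15 stood apart with a median of 0.59, where the other autosomes lay between -0.08 and 0.08, and none of the 9 genes is on it.

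Promoters were compared as sequence, since Dnmt3b and Dnmt3l differed alike between the libraries, and since E2F sites are the route by which Rbl2 is known to act. In the RefSeq windows of 250 bases before to 50 after a start site (GRCm38.p6), the Dnmt3b promoter holds 30 CpG dinucleotides and the first Dnmt3l promoter 6. Over 32851 such promoters the median is 7 and the upper quartile 20. The 2 genes that differed most between the libraries therefore have unlike promoters in this respect. CpGs are in capitals.
Dnmt3b promoter, chr2:153649199-153649498, plus strand: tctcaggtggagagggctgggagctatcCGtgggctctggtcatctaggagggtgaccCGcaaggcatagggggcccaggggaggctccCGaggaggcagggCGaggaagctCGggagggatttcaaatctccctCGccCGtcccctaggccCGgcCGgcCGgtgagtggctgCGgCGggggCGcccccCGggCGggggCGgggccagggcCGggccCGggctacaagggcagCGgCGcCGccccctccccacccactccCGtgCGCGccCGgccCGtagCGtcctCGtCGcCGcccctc
Dnmt3l promoter, chr10:78042037-78042336, plus strand: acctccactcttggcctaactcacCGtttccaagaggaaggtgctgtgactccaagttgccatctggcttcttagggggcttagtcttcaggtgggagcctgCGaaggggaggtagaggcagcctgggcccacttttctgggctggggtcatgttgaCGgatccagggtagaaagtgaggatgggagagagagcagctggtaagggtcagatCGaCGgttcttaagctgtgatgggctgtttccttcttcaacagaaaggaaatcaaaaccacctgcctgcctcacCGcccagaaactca

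E2F-type motifs were searched on both strands as TTTCCCGC, TTTCGCGC, TTTGCCGC and TTTGGCGC, which 2.26% of all 32851 promoters hold. Among these genes, only 1 of the 3 Dnmt1 promoters, with 2 matches, and 1 of the 2 Uhrf1 promoters, with 1, held any. No window of Dnmt3a, Dnmt3b, Dnmt3l, the TET genes, Tdg or Rbl2 held these letters, from which nothing follows about the factors. The matches are in capitals below.
Dnmt1 promoter, chr9:20952574-20952873, minus strand: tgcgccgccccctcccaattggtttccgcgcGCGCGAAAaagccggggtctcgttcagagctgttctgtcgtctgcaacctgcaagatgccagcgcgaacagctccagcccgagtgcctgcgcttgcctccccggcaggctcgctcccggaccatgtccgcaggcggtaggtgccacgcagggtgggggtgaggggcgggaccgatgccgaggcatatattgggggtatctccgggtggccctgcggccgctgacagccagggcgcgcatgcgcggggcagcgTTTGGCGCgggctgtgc
Uhrf1 promoter, chr17:56304063-56304362, plus strand: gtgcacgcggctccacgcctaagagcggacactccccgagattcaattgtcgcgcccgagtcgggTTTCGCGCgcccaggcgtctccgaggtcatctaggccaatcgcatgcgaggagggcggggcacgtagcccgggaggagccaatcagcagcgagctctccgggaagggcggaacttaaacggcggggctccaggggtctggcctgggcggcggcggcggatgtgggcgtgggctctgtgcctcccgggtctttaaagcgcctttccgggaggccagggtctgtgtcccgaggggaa

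Rbl2 (ENSMUSG00000031666, chr8:91070057-91123844, plus strand) itself was nearly level between the libraries. It had 1840 counts in replicate 1 and 1607 in replicate 2, or 5.60 and 5.33 RPKM, with a log2 ratio of 0.07 (-0.02 to 0.17) whose interval included 0. Of its 50-base stretches 11.3% occur in other genes' transcripts, mostly those of Aktip. Within the pocket protein and E2F list, 0 of 9 genes were beyond 2-fold and the median was -0.18. Beyond 2-fold were 21.4% of all genes and 6.78% of those averaging 1000 counts or more, as all of this list did. The most counted gene of the list, the repressor-type factor E2f4, had 3658 and 4758 counts, a log2 ratio of -0.50.

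Genes listed for maintenance, for de novo targeting and protection, and for methyl group supply were mostly lower in replicate 1. Among 6 partners of maintenance methylation, 6 were lower in replicate 1 with a median of -0.51. Hells, the remodeller that opens chromatin for methylation, was the only one past 2-fold, by 2.01-fold, at 11158 and 20599 counts (log2 ratio -1.01). Its interval of -1.04 to -0.97 spans 2-fold, and by total counts, at 268 and 496 CPM, Hells was not past 2-fold. Of 11 genes in de novo targeting and protection, 10 were lower, with a median of -0.51. This list joins genes that guide methylation with genes that protect from it, so its median speaks for neither side alone. Here Kdm2b, which binds unmethylated CpG islands, was past 2-fold at 2230 and 5538 counts (log2 ratio -1.43). For the supply of methyl groups, 4 of 5 genes were lower and 0 were beyond 2-fold, and Mat2a, which makes S-adenosylmethionine, led with 19076 and 22212 counts (log2 ratio -0.34). The medians of these lists stand beside 0.02 over all genes, -0.09 over genes of at least 1000 counts and -0.20 at 5000 or more. Lower in replicate 1 were 48.7% of all genes tested, 58.8% at 1000 counts or more and 69.9% at 5000 or more. More than 2-fold lower were 7.14%, 2.78% and 2.57%, in the same order.

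The reading and repair lists were mixed. Among 8 methyl-CpG readers 4 were higher and 4 lower in replicate 1, the median was -0.02, and Zbtb4, a zinc finger reader, was past 2-fold at 746 and 313 counts (log2 ratio 1.13). In the list of TET partners and of enzymes around alpha-ketoglutarate, the TET cosubstrate, the median of 9 genes was -0.04. Only Cxxc4, a partner of TET2, was past 2-fold there, from 6 and 22 counts (log2 ratio -1.83, interval -3.59 to -0.65). Base excision repair had a median of 0.25, with 5 of 15 genes more than 2-fold higher in replicate 1 and 0 lower, beside the 14.2% of all genes that were higher. These were the glycosylases Smug1 (1723 and 737 counts), Neil2 (510 and 224) and Neil3 (500 and 228), and the stress-induced genes Gadd45b (1456 and 598) and Gadd45g (197 and 79). Their log2 ratios lay between 1.01 and 1.19, and Smug1 is on chromosome 15. Genes within 1 Mb of them had medians from -0.49 around Neil3 to 0.50 around Neil2. Of the 15 repair genes, 10 were higher and 5 lower in replicate 1. The summed level of the list went the other way from its median, at 1370 CPM in replicate 1 and 1642 CPM in replicate 2.

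**Figure D5:**
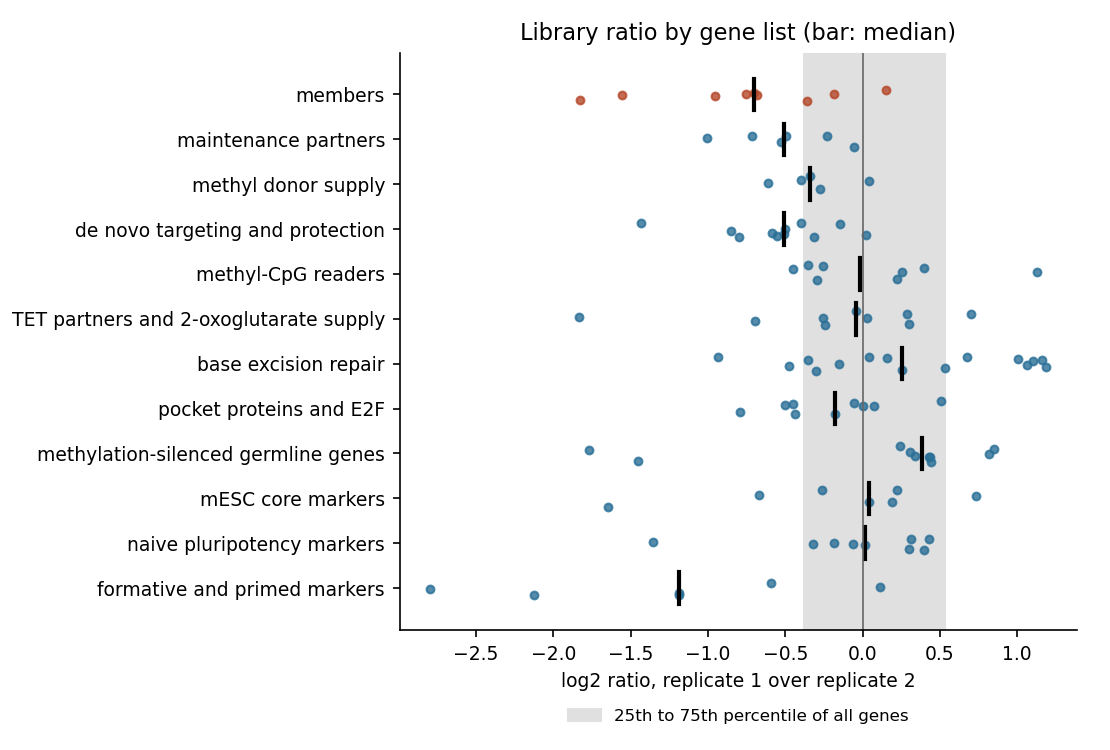
Log2 ratio of replicate 1 over replicate 2 for each gene averaging 10 counts or more, by list, with the list's median as a black bar and the middle 50% of all genes in grey. Among the 12 lists drawn, formative and primed markers have the lowest median (-1.19), the 9 methylation genes the next (-0.70), and germline genes the highest (0.39).

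Of the formative and primed markers, 5 of 6 were lower in replicate 1. The 9 naive markers, of which Tfcp2l1 was the most counted with 29394 and 30725, had a median log2 ratio of 0.02. Of these 9, 5 were higher and 4 lower in replicate 1, and only Nr0b1 was past 2-fold, with 3125 and 7364 counts (log2 ratio -1.36). Of the 7 core mESC genes, 4 were higher and 3 lower. Only Lin28a was past 2-fold among those 7, with 603 and 1733 counts (log2 ratio -1.64). The 6 formative and primed markers, genes that come on as mESCs leave the naive state, had a median of -1.19, and 4 of 6 were more than 2-fold lower in replicate 1, beside 7.14% of all genes. Their summed level was 68.6 CPM in replicate 1 and 171 CPM in replicate 2. Otx2, an early driver of the formative state and the most counted of them, had 2515 and 5266 counts. Chosen after their values were seen, Lef1 had 83 and 535 counts, Fgf15 had 195 and 784, and Fgf5 had 9 and 20. The other two were closer between the libraries, Pou3f1 with 98 and 136 counts (log2 ratio -0.59) and Sox3 with 80 and 68 (log2 ratio 0.11). The part of cell state in the Dnmt3b and Dnmt3l values was not tested.

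Trophectoderm and primitive endoderm markers were mostly higher in replicate 1, the library in which 8 of the 9 methylation genes were lower. Of 5 trophectoderm genes past the filter, 4 were more than 2-fold higher in replicate 1, beside 14.2% of all genes, and the list's median log2 ratio was 1.71. Chosen after their values were seen, Hand1 had 229 and 15 counts, Elf5 had 70 and 11, Gata3 had 52 and 14, and Eomes had 334 and 151. These 4 genes averaged 33 to 242.5 counts, and calls past 2-fold are more frequent at low counts. In either direction, such calls made up 21.4% of genes averaging 10 counts or more and 14.05% at 100 or more. The first share includes the genes of the second, so among genes averaging 10 to 100 counts it is above 21.4%. Gata3 and Elf5 lie in that range, as do Gata6 and Dab2 below, so shares over all genes are too low a measure for them. The summed trophectoderm level was nearly the same, 83.0 and 77.7 CPM, since most of it came from Tead4 with 2915 and 2908 counts. Of 5 primitive endoderm genes past the filter, 4 were higher in replicate 1 and 1 was lower, beside 9129 of the 17788 genes tested that were higher. Their median was 0.76, and the summed levels of the list were 17.6 and 11.1 CPM. More than 2-fold higher were 2, beside 14.2% of all genes, namely Gata6 (16 and 5 counts) and Dab2 (52 and 17), which is on chromosome 15. The most counted was Gata4 with 586 and 318, and genes within 1 Mb of it had a median log2 ratio of 0.50. Of 4 neuroectoderm genes 0 were beyond 2-fold, beside 21.4% of all genes. Their summed levels were 48.3 and 55.8 CPM, with Nes leading at 1771 and 1852 counts. No gene of these lists was at 0, and the part of such cells in the values above was not tested.

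Of 11 germline genes that are known to be silenced by promoter methylation in somatic cells, 10 passed the filter on low counts. Asz1 did not, with 4 and 10 counts, and Tex101 was low at 42 and 21. Of 10 such genes past the filter, 8 were higher in replicate 1, as were 9129 of the 17788 genes tested, and the median was 0.39. The counting intervals of Sycp1 (298 and 231 counts) and Slc25a31 (94 and 68) included 0. None of the 8 was beyond 2-fold. The other 2 were more than 2-fold lower in replicate 1, beside 7.14% of all genes. They were Hormad1, a meiotic axis gene with 683 and 2138 counts (log2 ratio -1.77), and Stk31, a germ cell kinase with 406 and 1023 (log2 ratio -1.45). DNA methylation itself was not measured in these libraries.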

How the data were processed

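PolyA-selected RNA of 2 Dicer_KO libraries was sequenced with a strand-specific protocol. According to the methods and labels, the authors trimmed reads, aligned them with STAR (2.4.2a) to mm10 (GRCm38), and ran featureCounts (1.4.5-p1) on Ensembl genes, leaving aside reads where regions overlap. The deposited files give whole counts for each gene, not normalized. The strand setting is not given in the sources used here, and 0 columns were left unused.

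The members and lists were chosen with earlier results of these data known. Libraries were scaled with the TMM factors of edgeR (4.0.16, R 4.3.3). Log2 ratios are replicate 1 over replicate 2 with a pseudocount of 1, for 17788 genes averaging 10 counts or more, and intervals are 95% Clopper-Pearson. A gene past 2-fold was counted as called. RPKM used exon lengths from GENCODE M21, in which 1081 listed identifiers had no entry, and which is not the annotation counted on. Ratios were tested on simulated data. The text names the 9 genes, Dicer1 and Rbl2, and in each list the genes past 2-fold or else the most counted one. For markers it names those at 0, the most counted and others chosen after their values were seen. Alternatives were total counts, DESeq2 (1.42.0) size factors, other pseudocounts, filters, thresholds and lengths, and leaving out a library.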

Additional observations from a re-analysis of the deposited data

How the results depend on the processing

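With both libraries kept, 43 results were recomputed in 146 alternative values, of which 115 stayed within their interval or tolerance, 29 moved and 2 reversed. Total counts in place of TMM account for 18 of the 29, as they moved the median log2 ratio of all genes from 0.02 to 0.14, and the members' median went from -0.70 to -0.59. Relative to all genes this shift is common to every gene. Under total counts the medians of the methyl-CpG readers and of the TET partners turned to 0.10 and 0.077. Lowering the threshold to 1.5-fold took the members called from 2 to 6. The count of members lower in replicate 1 was 8 under both other scalings, and 7 with a minimum mean of 100 counts, where Tdg was no longer included. The length of the longest transcript moved 8 values, among them Tet1 over Tet2, from 1.90 to 1.11, and kept 9 of 9 members in order. Leaving out a library gave a median member level of 16.5 to 30.8 RPKM beside 24.98, and each left 7 of 9 members at their rank. No paired analysis was possible because there is only 1 group, Dicer_KO. Depth limits Tdg and Cxxc4 most, by their counts.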
